A study of Saccharomyces cerevisiae with 4 samples.

Results

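Structural proteins of the yeast cell wall are represented here by 5 genes, all of which the chip carried among its 353 named genes. They are the paralogs SED1 and SPI1, the paralogs CCW12 and NCW2, and CCW14, found by gene symbol in the platform's annotation. Each had 2 spots, which were averaged on each array, and each had a value on all 4 arrays. The cells were Saccharomyces cerevisiae BY4741, a haploid laboratory strain, deleted for HOG1, whose product is the last MAP kinase of the high osmolarity pathway. A culture at 24 °C in the rich medium YEPD was split. One part received Congo Red at 30 µg/ml and the other was left untreated, and both were collected 4 h later. RNA of both parts was hybridised together on a dedicated cell wall microarray, 4 arrays in all, and the channels were exchanged between them: channel 2 held the treated RNA on arrays 1 and 3, channel 1 on arrays 2 and 4. Both channels hold RNA of the deleted strain, and HOG1+ cells were not analysed here.

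The yeast wall is a net of glucan and some chitin, covered by mannoproteins. Many of these proteins carry a glycosylphosphatidylinositol (GPI) anchor when they reach the plasma membrane and are then moved onto wall glucan, where they stay covalently bound. Congo Red binds chitin and glucan and disturbs wall assembly, and such damage activates the cell integrity pathway, whose MAP kinase Slt2 acts on the transcription factor Rlm1. Sed1 is an abundant GPI wall protein that is especially prominent in stationary phase, and Spi1 is its relative, known from stationary phase and weak acid stress. Ccw12 is a small, very abundant GPI wall protein found at sites of growth and needed for a stable wall. Ncw2 is its less abundant relative, and Ccw14 is a GPI glycoprotein of the inner wall.

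Each value is the log2 of the ratio between the channels, so a value of 1 is a 2-fold difference, and no level of a transcript in either part of the culture can be given. The sources used here do not give the numerator. The Congo Red RNA was taken for it, a direction called likely because wall stress genes are then higher, so the direction of such genes is no independent finding, and every rise below would be a fall if the ratio ran the other way. Values were used as deposited, as if the arrays were already turned one way. Pearson's r across genes (which do not stand for replicates) was 0.70 and 0.75 for the pairs of arrays of equal channel order, against 0.27 to 0.44 for the 4 other pairs. With arrays 2 and 4 turned in sign, limma called 0 of all tested genes (33 had an unadjusted p under 0.05), and 0 of the 5 wall protein genes reached even that unadjusted p. Nothing used here says whether the arrays came from separate cultures, so the p-values measure only how far these arrays differ, and that spread may be technical. On arrays 1 to 4 HOG1 itself read 1.43, -1.73, -0.23 and 1.25 (log2), and because the position of its probe is not given these do not check the deletion. The actin gene ACT1 averaged 0.06 ± 0.13 on the log2 scale (SD, n = 4).

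After Congo Red, transcripts of SED1, NCW2 and SPI1 were higher than in untreated cells, by 2.87-, 2.58- and 1.90-fold. CCW14 was 1.72-fold higher on average but missed the threshold, and CCW12 had a mean ratio close to 1. By limma with Benjamini-Hochberg adjustment over 348 tested genes, 3 of the 5 rose and 0 fell at an adjusted p under 0.05, beside 17.0% of all tested genes that rose and 3.74% that fell. At an unadjusted p under 0.05, 4 of the 5 were higher and 0 lower, beside 24.7% and 7.76% of all tested genes. Log2 ratios were above 0 on every array for 4 of the 5, as for 27.3% of the tested genes on the arrays that measured them. The median of the 5 mean log2 ratios was 0.93, against 0.02 over all tested genes. A difference on 4 arrays has 16 sign assignments, of which at least 2 are as extreme as the data, so an exact two-sided sign-flip permutation test of 1 value cannot pass 0.05.

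**Figure D1:**
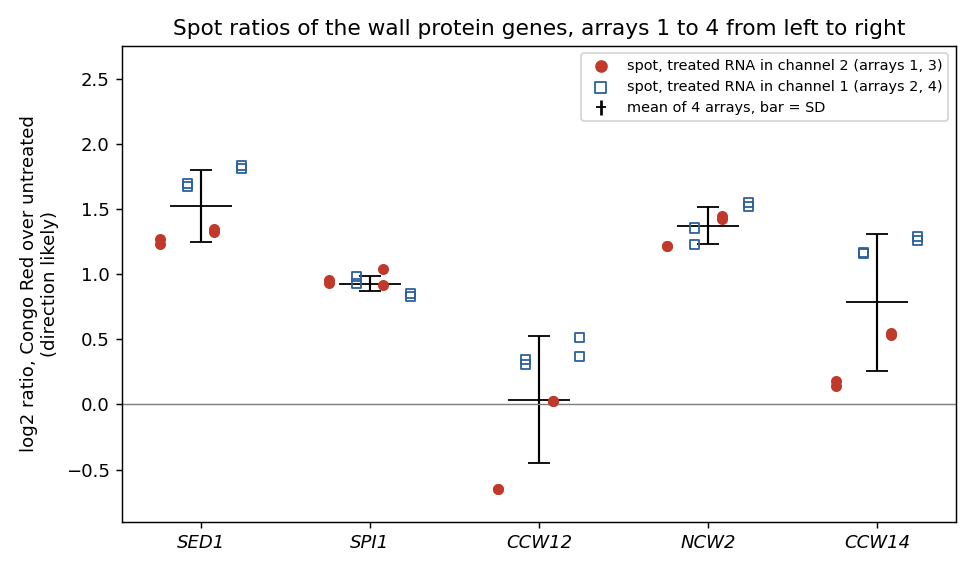
Log2 ratio (Congo Red over untreated, vertical axis) of each of the 2 spots of SED1, SPI1, CCW12, NCW2 and CCW14 on arrays 1 to 4, from left to right within a gene; the bar is the mean of the 4 arrays and its SD. SED1, SPI1 and NCW2 lie above 0.8 on every array, and CCW12 lies on both sides of 0. In SED1, CCW12 and CCW14 arrays 2 and 4 (open squares) lie above arrays 1 and 3 (filled circles).

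On arrays 1 to 4 SED1 (YDR077W) showed log2 ratios of 1.25, 1.68, 1.33 and 1.82. All 4 lay well above 0, with arrays 2 and 4 above arrays 1 and 3. The mean was 1.52 ± 0.27 (SD, n = 4), with a 95% limma interval of 1.15 to 1.89 and a limma adjusted p of 0.00353. It ranked 13 of the 348 tested genes by mean ratio. Its paired spots lay at most 0.03 apart on any array.

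SPI1 (YER150W), its paralog, had log2 ratios of 0.94, 0.95, 0.97 and 0.84. The values were almost the same on every array, whichever channel held the treated RNA. Their SD of 0.06 was the 3rd smallest among tested genes, whose median SD was 0.28. The mean was 0.93 ± 0.06 (SD, n = 4; 95% limma interval 0.67 to 1.19, limma adjusted p = 0.00504), at rank 41. SED1 therefore had the higher ratio of the pair on each array, by 0.31, 0.73, 0.36 and 0.98 on the log2 scale. The difference was larger on arrays 2 and 4 than on arrays 1 and 3, so its size moved with channel order. It averaged 0.60 ± 0.32 (SD, n = 4), and 2 of the 16 sign assignments were as extreme, the fewest possible. Such a test cannot reach significance here, before or after adjustment over the 2 paralog pairs compared.

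NCW2 (YLR194C), the relative of CCW12, had log2 ratios of 1.22, 1.29, 1.43 and 1.54. All 4 were high and close together. The mean was 1.37 ± 0.14 (SD, n = 4; 95% limma interval 1.08 to 1.66, limma adjusted p = 0.00245), at rank 17. On every array between 89.8% and 93.3% of the tested genes lay below it. Its values resembled those of SED1 more than those of any other of the 5, with a root mean square difference of 0.25 over the 4 arrays.

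CCW12 (YLR110C) had log2 ratios of -0.65, 0.32, 0.03 and 0.44. The gene was lower in treated cells on array 1 and near or above 0 on the others, so its arrays disagree on the direction. The mean was 0.04 ± 0.49 (SD, n = 4; 95% limma interval -0.50 to 0.57, limma adjusted p = 0.945). Its place among the tested genes moved accordingly, with 7.87% of them below it on array 1 and 74.3%, 30.1% and 72.2% on arrays 2 to 4. NCW2 had the higher ratio of this pair on each array, by 1.87, 0.97, 1.41 and 1.10. This difference averaged 1.33 ± 0.40 (SD, n = 4), and again 2 of the 16 sign assignments were as extreme, the fewest possible. In the order of genes on chromosome XII in the R64 gene table, 2 annotated genes separate CCW12 from the deleted HOG1. Both channels carry this deletion, and whether it touches CCW12 was not tested.

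The value of CCW12 on array 1 was shared with other genes. Both of its spots read -0.6483 there, and 7 other genes lay within 0.005 of it. Over tested genes the median on array 1 was 1 such neighbour and the 95th percentile was 5. The highest count was 7, that of CCW12 itself and of TDH2 in the same group. The 7 neighbours of CCW12 were REE1, an enolase regulator, and the glycolytic genes TDH2, TDH3, ENO1, ENO2, FBA1 and CDC19. The glycolytic genes are among the most abundant transcripts of growing yeast. REE1 differed from them in being low on every array, at -0.65, -0.54, -0.61 and -0.42. On arrays 2, 3 and 4 CCW12 had 1, 1 and 0 such neighbours, while the highest counts over tested genes were 7, 8 and 5. The 6 glycolytic genes spanned -0.45 to 0.81 on array 2, a range that holds the 0.32 of CCW12. They spanned -0.49 to -0.35 on array 3, where CCW12 lay above them, and 0.735 to 1.15 on array 4, where it lay below. A shared ratio also occurred on arrays 3 and 4. There TDH3, FBA1, CDC19 and PGK1 lay within 0.005 of TDH2, at -0.43 on array 3 and 1.15 on array 4. CCW12 was not among them on either array. These ranges and shared ratios were compared after the values were seen. Spot intensities were not analysed here, so whether the shared ratios come from spots at the scanner's ceiling was not tested. Without array 1 the mean of CCW12 was 0.26 (limma adjusted p = 0.333). SED1, SPI1 and NCW2 had at most 1 neighbour within 0.005 on any array and CCW14 at most 2.

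**Figure D2:**
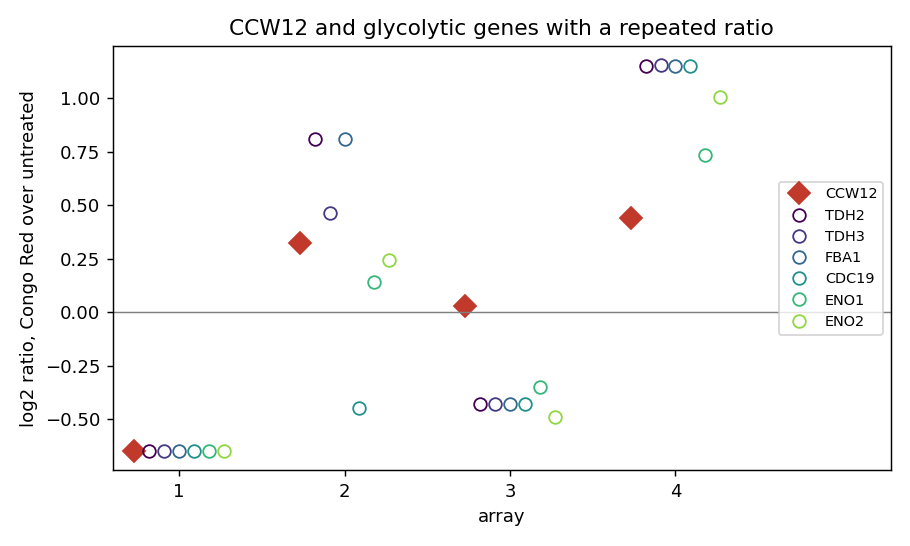
Log2 ratio (Congo Red over untreated, vertical axis) of CCW12 (diamonds) and of 6 glycolytic genes (circles, set side by side within an array). All 7 share a ratio near -0.65 on array 1, and CCW12 lies within the range of the other 6 on array 2, above it on array 3 and below it on array 4.

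CCW14 (YLR390W-A) had log2 ratios of 0.16, 1.16, 0.54 and 1.28. Arrays 2 and 4 were higher than arrays 1 and 3, as they were in SED1 and CCW12. How many of all tested genes split in this way was not counted, so the split is not called particular to these genes. The mean was 0.78 ± 0.53 (SD, n = 4; 95% limma interval 0.21 to 1.36), and the gene did not pass (limma adjusted p = 0.0725, unadjusted p = 0.0165). With a term for channel order in the model it did pass (limma adjusted p = 0.00472), as did 25.0% of all tested genes as higher. CCW14 passed too when arrays 1 and 2, and arrays 3 and 4, were averaged as if they were technical swaps (limma adjusted p = 0.00554). At that setting 67 of 328 tested genes were higher. Each average joins both channel orders, so this is no support separate from the fit with the channel order term. Its paired spots lay at most 0.04 apart, so the spread is between arrays and not between spots.

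The split by channel order differed among the 5 genes. With the treated RNA in channel 2 (arrays 1 and 3) SED1 was 2.45-fold higher, and in channel 1 (arrays 2 and 4) 3.37-fold. NCW2 was 2.51-fold higher with the treated RNA in channel 2 and 2.66-fold in channel 1, and SPI1 was 1.94- and 1.86-fold higher, so neither depended much on the order. CCW14 was 1.28-fold higher with the treated RNA in channel 2 and 2.33-fold in channel 1. CCW12 had mean log2 ratios of -0.31 and 0.38 in the same order. The channel order coefficient of the limma model was -0.43 for CCW14 (95% interval -0.73 to -0.14, limma adjusted p = 0.0859), -0.35 for CCW12 (adjusted p = 0.204) and -0.23 for SED1 (adjusted p = 0.237). It passed for none of the 5, against 6.61% of all tested genes, and 1 of the 5, CCW14, had an unadjusted p under 0.05, against 26.1% of all tested genes. After centring each array on its median it passed for CCW14 (limma adjusted p = 0.0430) and SED1 (0.0465), and for 14.1% of all tested genes. What moves with channel order, a dye or another property of the arrays, was not tested.

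**Figure D3:**
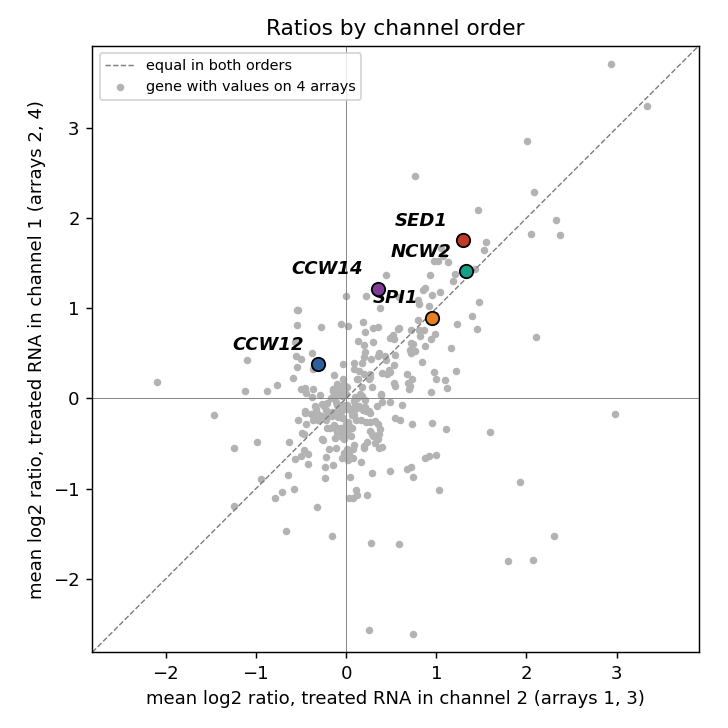
Mean log2 ratio (Congo Red over untreated) with the treated RNA in channel 2 (horizontal axis, arrays 1 and 3) and in channel 1 (vertical axis, arrays 2 and 4) for each gene with 4 values; the dashed line marks equal ratios. SPI1 and NCW2 lie near the line, while SED1, CCW12 and CCW14 lie above it.

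The genes whose ratios were most like each of the 5 were found by the root mean square difference of log2 ratio over the 4 arrays, among 327 other genes with 4 values. For SED1 they were RLM1, the transcription factor of the cell integrity pathway, at 0.196, SLT2, its MAP kinase, at 0.201, and PIR3, a wall protein bound to glucan without a GPI anchor, at 0.204. The median gene lay 1.59 from SED1. RLM1 averaged 1.33 ± 0.30, SLT2 1.59 ± 0.12 and PIR3 1.36 ± 0.39 (log2, SD, n = 4). For SPI1 they were SVS1, a wall protein gene named for vanadate sensitivity, at 0.115, MSG5, a phosphatase gene that acts on Slt2, at 0.132, and EXG2, an exoglucanase gene, at 0.148. For NCW2 they were CHA1, which encodes a deaminase of serine and threonine, at 0.107, YNL058C at 0.107 and SSK22, a kinase gene of the high osmolarity pathway upstream of Hog1, at 0.140.

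For CCW12 the closest genes were AGA2, which encodes the binding subunit of a-agglutinin, at 0.154, PAU24 at 0.216 and CAX4, a phosphatase gene of the dolichol cycle, at 0.228, and none of them passed the test. For CCW14 they were PRY2, the gene of a secreted sterol-binding protein, at 0.176, FIT1, a wall mannoprotein gene of iron uptake, at 0.192 and DAN1, a wall mannoprotein gene of anaerobic cells, at 0.273. PRY2 rose (log2 0.69 ± 0.38, limma adjusted p = 0.04996, a call lost without any single array), while FIT1 and DAN1, at 0.90 ± 0.62 and 0.68 ± 0.67, did not pass. PRY2, FIT1 and DAN1 were all higher on arrays 2 and 4 than on arrays 1 and 3, as CCW14 was. FIT1, for example, had 0.12 and 0.76 on arrays 1 and 3 and 1.14 and 1.59 on arrays 2 and 4. These genes were picked for ratios close to those of CCW14 on the same arrays, so the shared split is no independent finding.

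**Figure D4:**
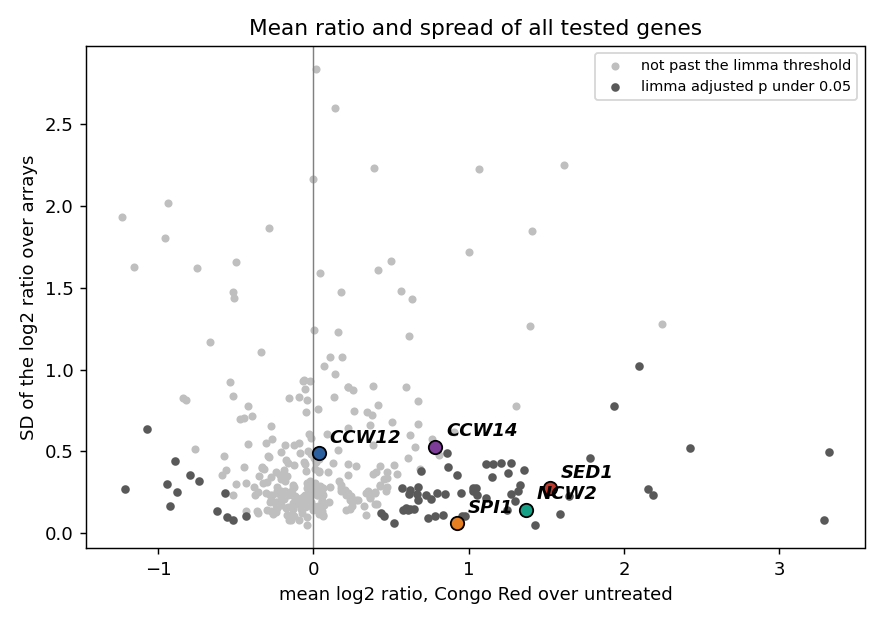
Mean log2 ratio (Congo Red over untreated, horizontal axis) and SD over arrays (vertical axis) of the 348 tested genes; dark points passed limma at an adjusted p under 0.05. SPI1 combines a mean of 0.93 with an SD of 0.06, SED1 and NCW2 lie farther right, and CCW12 and CCW14 have SDs near 0.5.

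Other wall proteins on the chip moved in both directions. Of 34 tested genes of a list of further wall proteins, 8 rose, 4 fell and 22 did not pass, beside the 17.0% and 3.74% of all tested genes that rose and fell, and their median log2 ratio was 0.23. The highest was CWP1, a GPI wall mannoprotein gene, at 3.32 ± 0.49 (limma adjusted p = 0.00148), followed by SPS2 at 1.93 ± 0.78, a call lost without array 3, and PST1 at 1.64 ± 0.23. SED1 and NCW2 came next, above PIR3 at 1.36 ± 0.39. FIT2, an iron-retention mannoprotein gene, fell by 1.21 ± 0.27 on the log2 scale. Leaving out array 2, 3 or 4 left 5, 4 and 5 of the list higher, and leaving out array 1, 3 or 4 left 2 lower. CWP1, SPS2 and PST1 encode GPI proteins as the 5 genes do, so GPI wall protein transcripts lay from CWP1 at the top of the chip to FIT2 near the bottom.

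**Figure D5:**
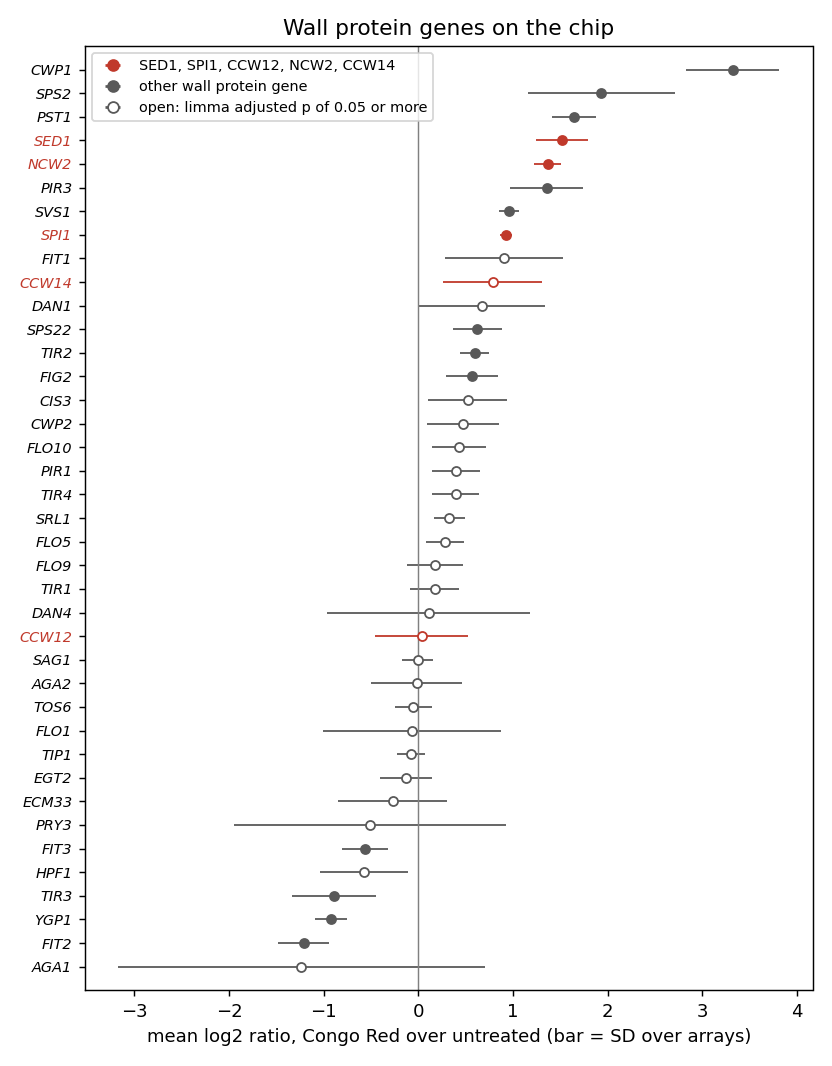
Mean log2 ratio (Congo Red over untreated, horizontal axis) and SD over arrays of SED1, SPI1, CCW12, NCW2 and CCW14 (red) and of the 34 other tested wall protein genes (grey); filled points passed limma at an adjusted p under 0.05. SED1 and NCW2 stand below CWP1, SPS2 and PST1, and CCW12 stands near 0.

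Enzymes that build or trim the wall, and genes known to answer to wall damage, are given for comparison. The counts stand beside 17.0% of all tested genes that rose and 3.74% that fell, with 7.76% lower at an unadjusted limma p under 0.05. Of 19 tested wall enzyme genes 8 rose and 0 fell (limma, and 0 lower at an unadjusted p under 0.05 too), with a median log2 ratio of 0.47. They included YPS3, a yapsin protease gene, at 2.43 ± 0.52, and CRH1, which encodes a chitin transglycosylase, at 1.32 ± 0.26. Of 23 tested genes of the integrity response, a list that overlaps the others, 19 rose and 0 fell (limma, again 0 lower unadjusted). Their median was 1.15, between the means of SPI1 and NCW2. The direction of the ratio was taken so that wall stress genes are higher, and the lists were chosen with earlier results of these data known. The direction of the integrity response genes is therefore no independent finding. Among these genes CRG1, a methyltransferase gene, stood at 3.29 ± 0.08 and PRM5, a membrane protein gene, at 2.19 ± 0.23. In the machinery that makes GPI anchors only 5 of 24 listed genes were tested. Of these 1, SPT14, rose (log2 1.21 ± 0.43, n = 3, limma adjusted p = 0.0268), close to the 17.0% of all tested genes. The 10 glycolytic and reference genes tested had a median of 0.04, and 1 of them, ALG9, rose. That median does not show stable values: the glycolytic genes that shared the ratio of CCW12 on array 1 varied widely between arrays. Their SDs ran from 0.61 (ENO1) to 0.89 (FBA1 and TDH2), against a median SD of 0.28 over tested genes.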

How the data were processed

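Transcripts were measured on 4 two-channel arrays, each comparing Congo Red-treated with untreated hog1 cells. The values are log2 ratios per spot as deposited. Base 2 was read from the deposited values: on arrays 1 to 3, 58, 57 and 36 fell within 0.00011 of log2(a/b) for different whole numbers a and b of at most 10, while the natural logarithm gave at most 5 such matches and log10 at most 9. Array 4 is given to 2 decimals. The sources used here name no scanner, background correction, normalization or spot filter. Median log2 ratios over spots were 0.01, -0.13, 0.22 and 0.07.

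Of 896 spots 724 had 1 gene symbol, 10 several and 162 none. The number of arrays limits the precision. Spots of a gene were averaged per array, and all 353 genes matched the R64 gene table, used for names and gene order only. The 348 genes with values on at least 3 arrays were tested against 0 with limma 3.58.1 in R 4.3.3 (lmFit, eBayes, Benjamini-Hochberg, threshold 0.05). The procedure was tested on simulated data whose arrays varied independently. That simulation left out the likeness of arrays of equal channel order, so it does not show how the calls behave under it. Named genes were the 5 genes, the 3 genes most like each, HOG1, ACT1, genes with the ratio of CCW12 on an array, and up to 5 called genes with the largest change per list; ALG9 was named after its values were seen. The genes and lists were chosen with earlier results of these data known. Alternatives were centring, scaling, turning, a channel order term, averaged array pairs, array weights, robust variance, a stricter filter, single spots and each array left out. How specific the probes are for paralogs is not given, and promoter and protein sequences were not analysed here. Plots used Python 3.11.15 and matplotlib 3.10.9.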

Additional observations from a re-analysis of the deposited data

Results flagged for a closer look

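Among 42 genes named by rule with a value on every array, 1 array stood far from the other 3 in 2 genes, and chance marks about 1 in 20 such groups. SLT2, one of the genes most like SED1, had a log2 ratio of 1.42 on array 1, against 1.64 to 1.66 on the others. CDC19, which shared the ratio of CCW12 on array 1, had 1.15 on array 4, against -0.65 to -0.43 on the others. That 1.15 was not particular to CDC19, because TDH2, TDH3, FBA1 and PGK1 had the same ratio there, within 0.005. None of the 5 wall protein genes had such an array.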

How the results depend on the processing

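SED1, NCW2 and SPI1 kept their rise and their call under all alternatives but the turning of arrays 2 and 4 in sign, where their mean log2 ratios were -0.23, -0.043 and 0.030. CCW14 was then -0.43 and CCW12 -0.35, SED1 minus SPI1 -0.26 and NCW2 minus CCW12 0.30, and 0 genes and 0 wall proteins of the list were higher or lower. With each array left out in turn SED1 ranged from 1.42 to 1.61, SPI1 from 0.91 to 0.96, NCW2 from 1.31 to 1.42, CCW14 from 0.62 to 0.99 (never past the threshold) and CCW12 from -0.10 to 0.26. SED1 minus SPI1 ranged from 0.47 to 0.69 and NCW2 minus CCW12 from 1.16 to 1.46. CCW14 had 0.78 and passed with a term for channel order and with arrays averaged in pairs. CCW12, never past the threshold, had -0.017 after centring on the median, -0.039 after centring and scaling and -0.021 after centring on ACT1. The channel order coefficient on centred arrays was -0.30 for SED1 and -0.50 for CCW14, both past the threshold, and -0.038 for SPI1. The cause of these shifts was not tested.

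Over all genes, 59 were higher and 13 lower. Lower genes numbered 23 after centring, 30 after centring and scaling and 34 with a term for channel order. Without 1 array, 33 (without array 3) to 46 genes were higher, with 39 without array 1, and 3 to 6 lower, and 4 to 7 wall proteins of the list higher and 2 to 3 lower. With a term for channel order 13 wall proteins were higher. With spots tested singly the counts are of spots, 109 higher and 26 lower over all genes and 14 and 8 in the list. No further pairing was added, because each value is already the ratio between treated and untreated RNA on the same array. The limma tests of these ratios therefore compare treated and untreated RNA in pairs, array by array.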
